A study of Bos taurus and Ovis aries and Capra hircus with 18 samples.

Results

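A set of 9 genes of the giant proteins and the Z-disc of striated muscle was followed through brain and muscle of adult cattle, sheep and goats. They are TTN (titin), NEB (nebulin), MYBPC1 and MYBPC2 (slow and fast skeletal myosin-binding protein C), MYOM1 and MYOM2 (myomesins), and MYPN (myopalladin), MYOT (myotilin) and LDB3 (also called ZASP or cypher). The members were chosen by gene name. Cattle genes were named by their position and the sheep and goat partners were found by exon structure and gene order, which gave 9 of 9 in each species, among 13359 genes matched in 3 species. Cattle had 27607 genes in its count tables, sheep 26478 and goat 27271. There were 18 libraries of poly(A)-selected RNA, 3 in each of 6 groups: cattle brain, cattle muscle, sheep brain, sheep muscle, goat brain and goat muscle. The labels give the stage as adult for each and name no treatment, breed, sex, brain region or muscle. Libraries carry the letters A, B and C, which are not stated to be separate animals, so p-values measure only the spread between these samples.

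The sarcomere is the contractile unit of striated muscle, bounded by Z-discs and centred on the M-line. Titin spans from the Z-disc to the M-line and acts as a molecular spring, and nebulin runs along the thin filament. Myosin-binding protein C sits on the thick filament, myomesins cross-link titin and myosin at the M-line, and myopalladin, myotilin and LDB3 are Z-disc proteins that bind alpha-actinin, filamin or actin. Mutations in several of these genes cause human myopathies or cardiomyopathies. In bulk tissue, fewer cells of a type and less RNA per cell cannot be told apart.

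Levels are CPM (counts scaled to the library size) per kb of exon, on 1 trimmed-mean (TMM) scale for the 18 libraries. Differences are log2 values of muscle minus brain, with the standard error (SE) after ±. Calls needed a log2 difference of at least 1 in size and, with edgeR, a p below 0.05 after Benjamini-Hochberg (BH) adjustment over all genes tested. Library totals ran from 20730803 to 58514630 counts. Neuron markers summed to between 1422 and 2743 in brain and between 1.86 and 5.27 in muscle. The 5 matched skeletal muscle markers (CKM, ACTA1, MYH1, MYH7 and TNNT3) summed to between 65286 and 171760 in muscle. Of the 3 matched cardiac markers in muscle, MYL7 had 0 counts in all 9 libraries, NPPB at most 1, and MYH6 stood between 0.24 and 20.1. Sheep brain C had a mean Spearman correlation of 0.867 with its group, against 0.928 and 0.929 for the others, and goat muscle C 0.956 against 0.974 and 0.971. Some results that rest on either are also given without it.

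The gene models limit titin most. It is encoded on chromosome 2 in all 3 species, and no deposited model covers the whole gene. Cattle TTN consisted of 6 pieces with 8433 bases of exon (chr2:18063636-18335770, plus strand, ARS-UCD1.2 per the submitters' processing notes). Sheep TTN had 4 pieces with 21408 bases (chr2:141864056-142199648, plus strand) and goat TTN 5 pieces with 54301 bases (chr2:117967598-118243703, minus strand). For sheep and goat the genome build is not stated. Counts of the pieces were added, and because the pieces cover unlike parts of the gene, joined TTN levels were tested between tissues and are not read as differences between species within a tissue.

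The other 8 genes each had 1 model per species. NEB held 25931 bases of exon in cattle (chr2:44434401-44651653), 20515 in sheep (chr2:169563447-169765440) and 19968 in goat (chr2:91553610-91752328). MYBPC1 held 4385 in cattle (chr5:65398362-65500279), 4557 in sheep (chr3:183090989-183209602) and 3526 in goat (chr5:64089196-64149428). MYBPC2 held 4090 in cattle (chr18:56581198-56607181), 3541 in sheep (chr14:60022080-60047325) and 3610 in goat (chr18:57595892-57621728). These 2 genes are paralogs. MYOM1 held 6253 bases in cattle (chr24:37255784-37379159), 5450 in sheep (chr23:42456826-42568962) and 4893 in goat (chr24:37637349-37751250). MYOM2 held 5053 in cattle (chr27:1452466-1516585), 4826 in sheep (chr26:1483686-1704998) and 7401 in goat (chr27:43097756-43167129). The remaining 3 are the Z-disc genes. MYPN held 4474 in cattle (chr28:24593260-24679611), 4090 in sheep (chr25:25533700-25618303) and 4523 in goat (chr28:20963763-21051645). MYOT held 2666 in cattle (chr7:49334671-49357200), 2451 in sheep (chr5:51690072-51713973) and 1895 in goat (chr7:61139238-61157917). LDB3 held 5174 in cattle (chr28:41325428-41384200), 4922 in sheep (chr25:43176963-43236490) and 5587 in goat (chr28:4336468-4397193). Goat MYOT and MYBPC1 were the shortest models of their genes, and goat MYOM2 the longest of its gene. All 8 partners had been found in the stricter first step of the matching.

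All 9 genes were called higher in muscle in each of the 3 species. Of all genes tested, 25.3% were called higher in muscle in cattle, 19.2% in sheep and 23.2% in goat, and 23.3% in the fit of the 3 species together. MYPN and MYOT in all 3 species and TTN in sheep passed the filter on low counts through muscle alone. Of these, only MYOT reached the cutoff in any brain library, in 2 of cattle and 1 of goat. That route favours a difference, so their calls are given only as a description. The other members reached the cutoff of the filter in all 3 brain libraries, and of these 7 of 7 were called in cattle, 6 of 6 in sheep and 7 of 7 in goat. Their median difference was 10.70 in cattle, 9.53 in sheep and 9.46 in goat, beside −0.09, −0.17 and −0.12 over all genes tested. By edgeR the largest BH-adjusted p among the 27 tests of the 9 genes was 0.000192, for MYBPC2 in sheep. The 9 genes took 3.22% to 5.11% of all counts in the muscle libraries and 0.00485% to 0.0108% in the brain libraries. With library totals alone as scaling, the genes called higher in muscle went from 4157 to 2325 in cattle, from 2996 to 1411 in sheep and from 3665 to 2019 in goat, those called lower went from 5574 to 7334, from 4455 to 7102 and from 4972 to 7100, and 9 of 9 members stayed called.

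**Figure D1:**
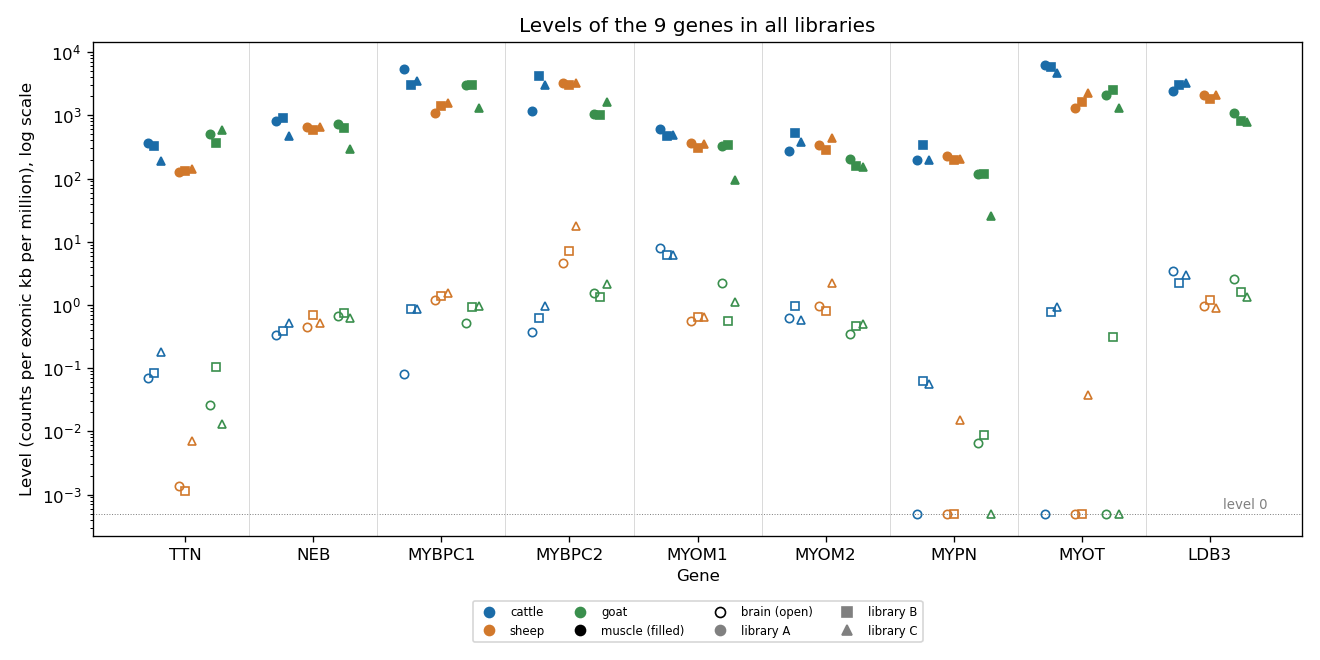
Level of each of the 9 genes in CPM per kb of exon, on a log axis, in every library; filled symbols are muscle, open symbols brain, colours are species and shapes are library letters. Muscle and brain do not overlap for any gene in any species, and MYPN and MYOT have brain libraries at a level of 0, drawn on the dotted line.

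TTN, the titin gene, was high in every muscle library and close to 0 in brain. In cattle muscle TTN stood at 363, 330 and 192 in libraries A, B and C, and in cattle brain at 0.0694, 0.0849 and 0.178. Sheep muscle held 128, 131 and 141 and sheep brain 0.00134, 0.00116 and 0.00714, the latter from 7 counts in all. Goat muscle held 500.3, 370.3 and 580 and goat brain 0.0266, 0.103 and 0.0130. No brain library came near a muscle library. The muscle-minus-brain difference of TTN was 11.28 ± 0.54 in cattle, 15.33 ± 0.75 in sheep and 13.26 ± 1.08 in goat (BH-adjusted p = 4.12e-07, 5.32e-05 and 9.81e-06 with edgeR). Over the group totals of reads, muscle was 2524-fold higher in cattle with a 95% counting interval of 2077 to 3100, and 44210-fold higher in sheep with an interval of 21460 to 110000. Such intervals cover counting error only.

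Nebulin, which sets thin filament length together with other proteins, had overlapping levels in the 3 muscles. NEB stood at 815, 915 and 471 in cattle muscle, 663, 579.96 and 662 in sheep muscle and 730.2, 627 and 291 in goat muscle. Goat muscle C was the lowest of the 9. In brain NEB was low, at 0.337, 0.389 and 0.513 in cattle, 0.451, 0.687 and 0.514 in sheep and 0.665, 0.743 and 0.632 in goat. Muscle exceeded brain by 10.70 ± 0.49, 10.18 ± 0.42 and 9.62 ± 0.58, with BH-adjusted p = 3.16e-07, 3.59e-05 and 1.78e-06 by edgeR. NEB was called in none of the comparisons between species: the log2 difference in muscle was 0.21 ± 0.34 for cattle minus sheep, 0.42 ± 0.34 for cattle minus goat and 0.21 ± 0.34 for sheep minus goat.

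The slow and fast forms of myosin-binding protein C, MYBPC1 and MYBPC2, were both far above brain in every muscle library. MYBPC1 stood at 5359, 3024 and 3437 in cattle muscle, 1091, 1412 and 1595 in sheep muscle and 2967, 3059 and 1292 in goat muscle. MYBPC2 stood at 1192, 4203 and 2969 in cattle muscle, 3285, 3054 and 3231 in sheep muscle and 1052, 1003 and 1619.9 in goat muscle. Cattle muscle A was the highest library for MYBPC1 and the lowest of its group for MYBPC2, and goat muscle C was the lowest of its group for MYBPC1 and the highest for MYBPC2. In brain MYBPC1 held 15, 120 and 134 counts in cattle, 191, 257 and 232 in sheep and 63, 84 and 114 in goat. MYBPC2 held 66, 82 and 137 counts in cattle brain, 560, 1028 and 2090 in sheep brain and 186, 124 and 264 in goat brain. The differences between tissues for MYBPC1 were 12.59 ± 1.04 (cattle), 9.95 ± 0.40 (sheep) and 11.53 ± 0.67 (goat), and those for MYBPC2 were 11.97 ± 0.76, 8.34 ± 0.69 and 9.46 ± 0.46.

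Myomesins had the smallest tissue differences of the set in the fit of 3 species, 7.65 ± 0.49 for MYOM1 and 8.58 ± 0.31 for MYOM2. MYOM1 stood at 599, 475 and 489 in cattle muscle, 359, 307 and 358 in sheep muscle and 332, 345 and 94.3 in goat muscle. In brain it stood at 7.94, 6.07 and 6.22 in cattle, 0.559, 0.653 and 0.650 in sheep and 2.26, 0.558 and 1.13 in goat. All 3 cattle brain libraries lay above the 6 others. MYOM2, the myomesin prominent in fast fibres, stood at 274, 519 and 376 in cattle muscle, 341, 285 and 437 in sheep muscle and 202, 160 and 151 in goat muscle. Per kb of exon, goat lay below both other species, but the goat model is the longest of the 3. Without the length offset the log2 difference in muscle was 0.36 for cattle minus goat and 0.57 for sheep minus goat, neither called. In brain MYOM2 stood at 0.621, 0.968 and 0.577 in cattle, 0.970, 0.815 and 2.21 in sheep and 0.346, 0.465 and 0.501 in goat. Tissue differences were 6.18 ± 0.25, 9.11 ± 0.33 and 7.59 ± 0.76 for MYOM1 and 8.98 ± 0.41, 8.07 ± 0.58 and 8.57 ± 0.37 for MYOM2 in cattle, sheep and goat.

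The Z-disc genes MYPN and MYOT had few or no counts in brain. MYPN stood at 194, 341 and 195 in cattle muscle, 226, 194 and 205 in sheep muscle and 116, 119.8 and 25.6 in goat muscle. Its brain counts were 0, 9 and 9 in cattle, 0, 0 and 2 in sheep and 1, 1 and 0 in goat. Pooled over libraries the fold of muscle over brain was 46200 in sheep with a counting interval of 12790 to 381500, and 18700 in goat with an interval of 5177 to 154500. MYOT stood at 6291, 5881 and 4676 in cattle muscle, 1313, 1614 and 2229 in sheep muscle and 2127, 2526 and 1289 in goat muscle. Its brain counts were 0, 67 and 88 in cattle, 0, 0 and 3 in sheep and 0, 15 and 0 in goat. For sheep the pooled fold was 151700 with an interval of 51910 to 735600. The fitted differences were 12.54 ± 0.70 for MYPN in cattle and 13.18 ± 1.31 and 14.32 ± 1.28 for MYOT in cattle and goat, each with at least 1 brain library at 0.

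LDB3 was measured well in every group. It stood at 2445, 2964 and 3206 in cattle muscle, 2076, 1826 and 2062 in sheep muscle and 1083, 826 and 774 in goat muscle, with no overlap between the 3. In brain it stood at 3.39, 2.25 and 2.97 in cattle, 0.963, 1.19 and 0.894 in sheep and 2.54, 1.60 and 1.33 in goat, with sheep below both others. Muscle exceeded brain by 9.87 ± 0.37 (cattle), 10.94 ± 0.40 (sheep) and 8.90 ± 0.47 (goat; BH-adjusted p = 1.27e-07, 3.59e-05 and 1.01e-06 with edgeR).

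**Figure D2:**
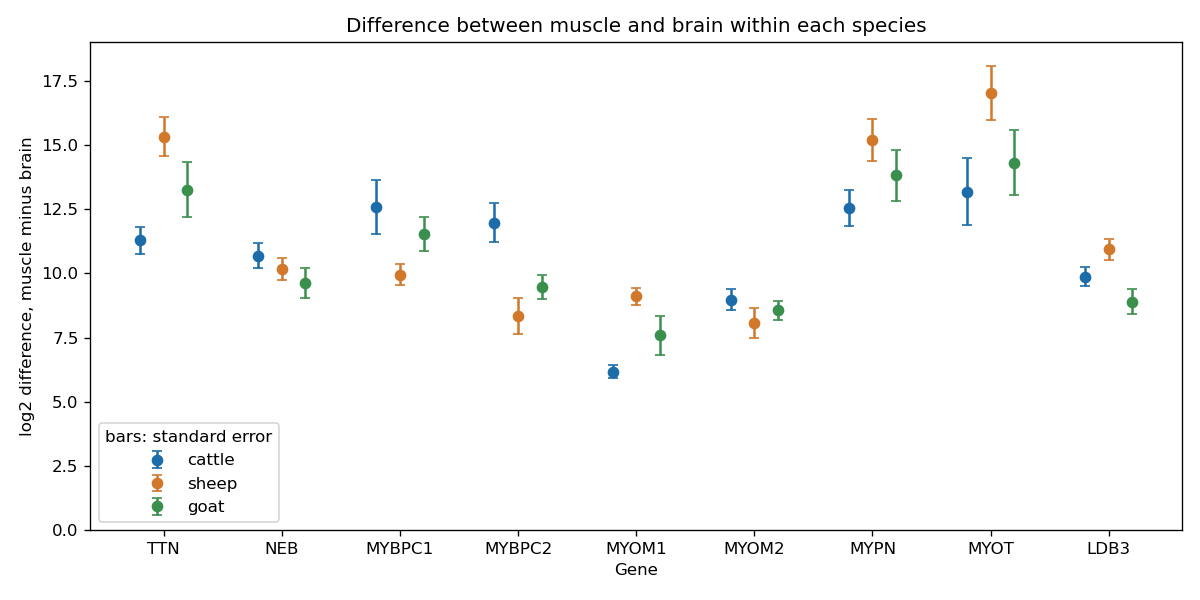
Log2 difference of muscle minus brain for each of the 9 genes in cattle, sheep and goat, with bars for the standard error. MYOM1 in cattle has the smallest difference, 6.18, and MYOT in sheep the largest, 17.01, on 3 brain counts.

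Within muscle the order of the members differed between species. In cattle the order by mean level was MYOT, MYBPC1, LDB3, MYBPC2, NEB, MYOM1, MYOM2, TTN and MYPN, and of the 8 pairs of neighbours only MYBPC2 and NEB did not overlap in range. In sheep MYBPC2 came first, followed by LDB3, MYOT, MYBPC1, NEB, MYOM2, MYOM1, MYPN and TTN, and 5 pairs of neighbours did not overlap: MYBPC2 and LDB3, MYBPC1 and NEB, NEB and MYOM2, MYOM1 and MYPN, and MYPN and TTN. In goat it was MYBPC1, MYOT, MYBPC2, LDB3, NEB, TTN, MYOM1, MYOM2 and MYPN, and 3 pairs did not overlap: LDB3 and NEB, TTN and MYOM1, and MYOM2 and MYPN. The place of TTN depends on which pieces of the gene each annotation holds.

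In muscle, 8 members were compared between species and 1 was called between cattle and sheep (29.1% of all genes were called). That was MYBPC1, 1.53 ± 0.56 higher in cattle (edgeR, BH-adjusted p = 0.0428), and the call was lost when any 1 of the 6 libraries was left out, with library totals alone, without the length offset and with replicate letters as a block. Between cattle and goat 3 of 8 were called, all higher in cattle, against 33.5% of all genes: LDB3 by 1.68 ± 0.29, MYPN by 1.48 ± 0.56 and MYOM2 by 1.19 ± 0.35 (edgeR, BH-adjusted p = 0.000235, 0.0443 and 0.0132). Of these, LDB3 held under 14 of 14 alternatives. MYPN was lost under 9, among them the omission of any 1 of cattle muscle A, B and C and goat muscle A and C. Without goat muscle C it stood at 1.04. MYOM2 was lost under 3: without cattle muscle B (0.92), with library totals alone (0.89) and without the length offset (0.36, BH-adjusted p = 0.438 with edgeR). Sheep against goat gave 3 of 8, all higher in sheep, against 22.8%: MYBPC2 by 1.38 ± 0.50, LDB3 by 1.15 ± 0.29 and MYOM2 by 1.05 ± 0.35 (edgeR, BH-adjusted p = 0.048, 0.00614 and 0.0348). The LDB3 call was lost with library totals alone, that of MYBPC2 under 9 of 14 alternatives, with any 1 of the 6 libraries left out among them, and that of MYOM2 under 10, with each of the 6 but sheep muscle B among them. Without the length offset the MYOM2 difference of sheep and goat was 0.57, and the goat MYOM2 model is the longest of the 3. The share of members called was near or below that of all genes in the first 2 of these comparisons. MYOT was not called by edgeR, but cattle muscle (4676 to 6291) overlapped neither sheep (1313 to 2229) nor goat (1289 to 2526). Its log2 difference was 1.71 ± 0.89 for cattle minus sheep and 1.50 ± 0.89 for cattle minus goat. Limma-voom called both (BH-adjusted p = 0.0291 and 0.0467). Markers of some other cell types differed between the same muscles, while of 4 fibroblast markers 0 were called in each of the 3 comparisons. Of the adipocyte markers ADIPOQ, PLIN1 and CIDEC, 3 of 3 were called higher in cattle than in goat (median 4.71) and 3 of 3 higher in sheep than in goat (median 5.62). Their summed level was 7.39 to 62.6 in cattle muscle, 32.9 to 184 in sheep muscle and 0.602 to 2.81 in goat muscle, and none of them was at 0 in any muscle library. Of the endothelium markers, 4 of 4 were called lower in cattle than in sheep and 3 of 4 lower in cattle than in goat, and they summed to 84.2 to 98.6 in cattle muscle, 249 to 259 in sheep muscle and 138 to 272 in goat muscle. Of 5 smooth muscle markers 3 were called higher in sheep than in goat, 1 higher in cattle than in goat and 0 between cattle and sheep. They summed to 226 to 356 in sheep muscle and 186 to 299 in goat muscle. Of 6 slow fibre markers 3 were called higher in cattle than in sheep, 4 lower in sheep than in goat and 1 lower in cattle than in goat. Of 7 fast fibre markers 2 were called lower in cattle than in sheep, 2 lower in cattle than in goat and 0 between sheep and goat. The part of these cell and fibre types in the values of the members was not tested.

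The brain levels of some members also differed between species. Between cattle and sheep 4 of 8 were called, against 25.3% of all genes. MYBPC2 was lower in cattle (−3.93 ± 0.56), MYOM1 3.44 ± 0.48 higher, LDB3 1.50 ± 0.29 higher and MYOT 5.42 ± 1.48 higher (edgeR, BH-adjusted p = 0.000107, 9.69e-05, 0.0012 and 0.0113). The calls of MYBPC2, MYOM1 and LDB3 held under 14 of 14 alternatives each. That of MYOT, which rests on 155 counts in cattle brain and 3 in sheep brain, was lost with limma-voom. In no species did MYPN or MYOT reach the filter cutoff in all 3 brain libraries, so the MYOT call is given only as a description. Between cattle and goat 1 of 8 was called, against 22.8%, with MYOM1 2.35 ± 0.46 higher in cattle (edgeR, BH-adjusted p = 0.00112). Between sheep and goat 2 of 8 were called, against 18.1%: MYBPC2 by 2.56 ± 0.52 and MYOM2 by 1.60 ± 0.37, both higher in sheep (edgeR, BH-adjusted p = 0.00205 and 0.00492). Without sheep brain C the MYOM2 difference was 0.93 and not called, while MYBPC2 stayed called at 1.71.

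Traces of muscle RNA were looked for beside these brain values. The summed skeletal markers in brain stood at 6.69, 24.5 and 24.1 in cattle A, B and C, at 7.15, 3.50 and 21.0 in sheep and at 3.44, 14.9 and 11.4 in goat. Of the cattle brain libraries, B and C, with the higher sums, had counts of MYOT and MYPN and A had none. In ppm of the mean muscle level of the same species, MYOT and MYPN in cattle brain B and C stood at 139 to 257 and the marker medians at 180 and 184. MYH7 was the highest of the 5 markers in 9 of 9 brain libraries, at 802 to 1101 in cattle, 449 to 1830 in sheep and 216 to 508 in goat. MYOM1 and MYOM2 lay above it in 9 of 9 brain libraries, with MYOM1 at 11650 to 15240 in cattle brain. MYBPC2 lay above it in all sheep brain libraries, at 1424 to 5654, and in all goat brain libraries, but in no cattle brain library. LDB3 in cattle brain stood at 782 to 1180, above MYH7 in library A only. NEB stood at 459 to 1352 over the 9 brain libraries and below MYH7 in all 3 of cattle. The part of muscle traces in the brain counts was not tested for any of the 9 genes.

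**Figure D3:**
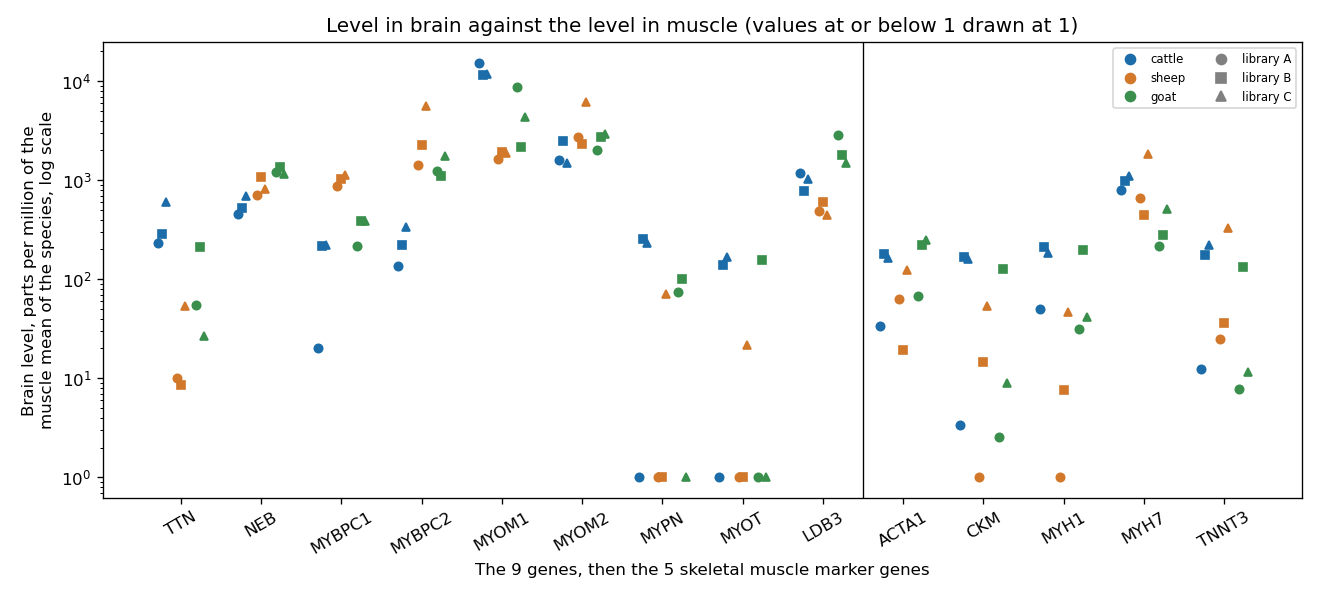
Level in each brain library in ppm of the mean muscle level of the same species, on a log axis, for the 9 genes (left of the line) and the 5 skeletal muscle markers (right); colours are species and shapes library letters. MYOM1 in cattle lies highest, between 11650 and 15240, and MYOT and MYPN have 5 and 4 libraries at 0, drawn at 1.

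The size of the tissue difference was compared between species by the interaction of species with tissue. Between cattle and sheep 4 of 9 members were called, against 20.0% of all genes. The difference was smaller in cattle for TTN (−3.95 ± 1.01) and for MYOM1 (−2.83 ± 0.63), and larger in cattle for MYBPC2 by 3.74 ± 0.72 and for MYBPC1 by 2.74 ± 0.80 (edgeR, BH-adjusted p = 0.0119, 0.00523, 0.00218 and 0.0233). Among the 6 members that reached the filter cutoff in the brain of both species, 3 were called, without TTN. MYOM1 and MYBPC2 held under 21 of 21 alternatives. MYBPC1 was lost without cattle muscle A, without sheep muscle A and with the letters as a block. When TTN was counted by its last piece alone the difference of tissue differences was −4.46 ± 1.24 (edgeR, BH-adjusted p = 0.0183). In sheep brain that piece held 0 and 0 counts in A and B and 4 in C, the library least like its group. The brain counts behind the joined TTN value were 101 in cattle and 7 in sheep, where TTN passed the filter through muscle alone. The TTN call is therefore given only as a description, and its size rests on few reads.

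Between cattle and goat 1 of 9 was called, against 13.1% of all genes: the tissue difference of MYBPC2 was 2.56 ± 0.71 larger in cattle (edgeR, BH-adjusted p = 0.0256), and it was lost under 8 of 21 alternatives, 7 of which leave out 1 library. Those libraries were cattle brain A and B, cattle muscle B and C, goat brain C and goat muscle A and B. MYOM1 was called as well without goat muscle C (−1.73) or goat brain A (−1.98), and TTN without goat brain B (−3.18). Between sheep and goat 1 of 9 was called, against 7.45%: that of LDB3 was 1.99 ± 0.41 larger in sheep (edgeR, BH-adjusted p = 0.00858) and held under 21 of 21. These species comparisons share their libraries.

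The ratio of MYBPC1 to MYBPC2, per length, was 4.50, 0.719 and 1.16 in cattle muscle, 0.332, 0.462 and 0.494 in sheep muscle and 2.82, 3.05 and 0.798 in goat muscle. All 3 sheep libraries lay below the 6 others, but the exact permutation test of species over the 9 libraries gave p = 0.075 (BH-adjusted over 3 ratios, 0.112), where 0.00357 is the smallest p it can give. MYOM1 to MYOM2 was 2.19, 0.914 and 1.30 in cattle, 1.05, 1.08 and 0.819 in sheep and 1.65, 2.16 and 0.625 in goat, with p = 0.6 in the same exact test. The ratio of summed slow to summed fast fibre markers (6 and 7 genes) was 1.29, 0.188 and 0.442 in cattle, 0.0610, 0.108 and 0.0926 in sheep and 0.416, 0.469 and 0.0795 in goat. Cattle muscle A was the highest library in all 3 ratios, and goat muscle C was the lowest of its group in all 3. The part of fibre type in the myosin-binding protein C and myomesin values was not tested, and the muscle sampled is not named in the labels.

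**Figure D4:**
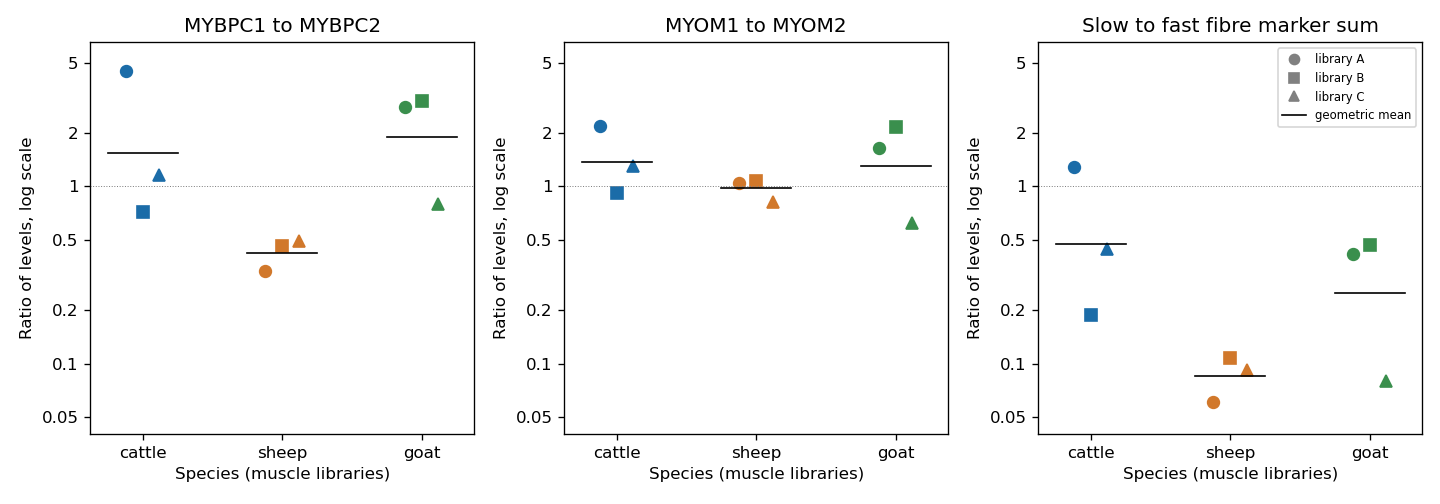
Ratio of MYBPC1 to MYBPC2, of MYOM1 to MYOM2 and of summed slow to summed fast fibre markers in the 9 muscle libraries, on log axes, with the geometric mean of each species as a line. Cattle A is the highest point in each panel (4.50, 2.19 and 1.29), and the sheep libraries lie low in the MYBPC and fibre marker panels.

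Joined TTN to NEB, per length, stood at 0.445, 0.361 and 0.409 in cattle muscle, 0.193, 0.226 and 0.213 in sheep muscle and 0.685, 0.590 and 1.998 in goat muscle. Because the joined pieces are unlike parts of the gene, these ratios do not compare the species, and their test is void for that purpose. With TTN counted by the 7-exon piece found in all 3 species the exact permutation test gave p = 0.654, and with the last piece alone p = 0.157. The last piece holds 1329, 1361 and 42653 bases of exon in cattle, sheep and goat, so it is unlike too. The 7-exon piece held fewer reads per kb than the first and last pieces. Neither p is read as a comparison of TTN to NEB between the species.

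TTN was also read piece by piece, in CPM per kb of exon, scaled by the library total. In all 9 muscle libraries the last piece, at the 3′ end, held far more reads per kb than the pieces before it. The first piece stood at 54.5, 47.2 and 56.2 in cattle, 23.8, 29.0 and 35.2 in sheep and 22.5, 24.6 and 8.78 in goat. For the last piece cattle had 959, 827 and 444, sheep 976, 1067 and 1029 and goat 463, 334 and 448. The 7-exon piece in the middle, of 1692 bases in cattle and sheep and 1686 in goat, held 2.49 to 3.07 in cattle, 1.98 to 3.74 in sheep and 2.58 to 2.80 in goat. Its ranges overlapped between all 3 species. The last piece exceeded the first 7.90-fold to 17.6-fold in cattle, 29.2-fold to 41.0-fold in sheep and 13.6-fold to 51.0-fold in goat. Since the last piece of goat holds 42653 bases of exon and those of cattle and sheep 1329 and 1361, a joined TTN level weighs these parts unlike. Goat TTN also has a 5-exon model on the opposite strand inside its span, with 178, 268 and 104 counts in goat muscle and 0, 1 and 1 in goat brain. Whether the counting used strand is not stated, so reads of the 2 models could not be told apart.

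**Figure D5:**
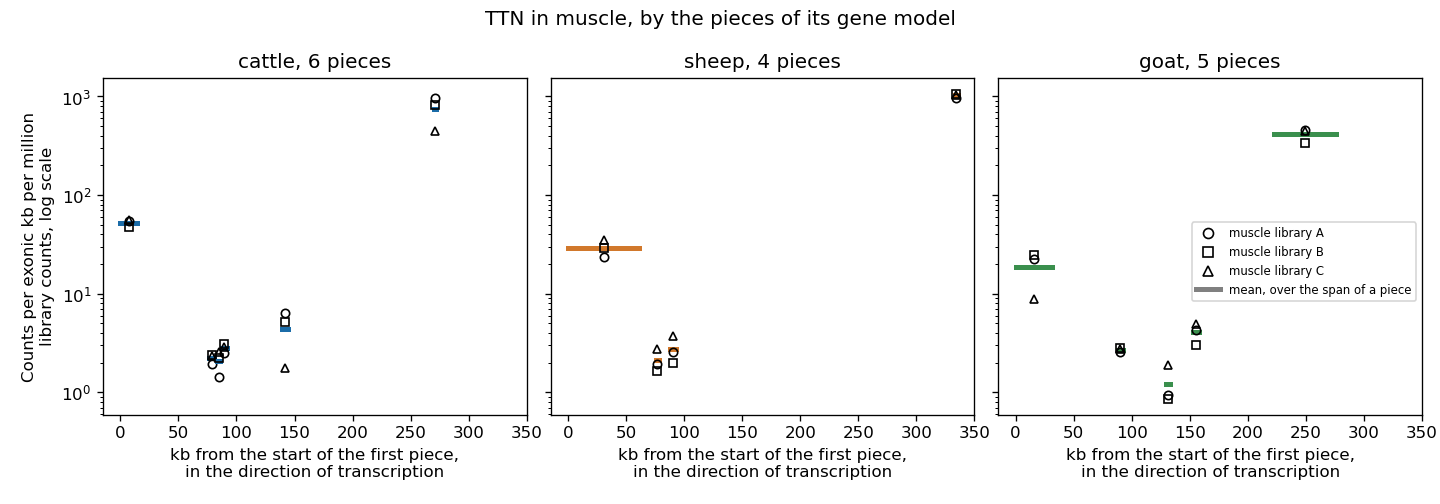
TTN in muscle by the pieces of its gene model, in CPM per kb of exon, scaled by the library total (log axis), against kb from the start of the first piece in the direction of transcription; symbols are the libraries and bars the mean over the span of a piece. The last piece lies highest in each species, between 334 and 1067, and the middle pieces lie between 0.851 and 6.37.

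Goat muscle C stood apart among the members. Its level over the mean of goat muscle A and B was 0.217 for MYPN, 0.278 for MYOM1, 0.428 for NEB, 0.429 for MYBPC1 and 0.554 for MYOT. It was 0.811 for LDB3, 0.833 for MYOM2, 1.33 for TTN and 1.58 for MYBPC2. Its summed fast fibre markers were 200300 against 83210 and 79010 in A and B. The last piece of TTN exceeded the first 51.0-fold in C against 20.5-fold and 13.6-fold in A and B, with the first piece at 8.78 against 22.5 and 24.6. The part of RNA quality in the levels of this library was not tested.

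Other sarcomere genes moved in the same direction between tissues. Of 14 listed genes of the thick filament and M-line, 12 could be tested in the 3 species together, and 11 were called higher in muscle and 1 lower, with a median of 9.01. MYLK2 (skeletal myosin light chain kinase) was higher by 11.72 ± 0.38, the myosin chaperone UNC45B by 11.92 ± 0.41, CMYA5 by 8.80 ± 0.28 and the ubiquitin ligase TRIM63 by 10.49 ± 0.43. MYBPC3, the cardiac form of myosin-binding protein C, stood at −3.58 ± 0.54, with 23, 4 and 4 counts in the muscle of cattle, sheep and goat. Of 14 thin filament genes 10 were tested, 9 called higher in muscle and 1 lower, with a median of 9.35. These included KLHL41 (12.44 ± 0.51), NRAP (12.17 ± 0.53), skeletal alpha-actin ACTA1 (13.07 ± 0.61) and tropomyosin TPM1 (7.11 ± 0.34), while LASP1, which is widely expressed, stood at −1.61 ± 0.28. Of 25 Z-disc genes and titin partners 18 were tested and 18 called higher in muscle, with a median of 8.23, among them MYOZ2 (12.77 ± 0.49), ANKRD23 (7.21 ± 0.29), PDLIM3 (8.11 ± 0.33) and DES (desmin, 9.25 ± 0.38). Over all genes tested in this fit 23.3% were called higher in muscle and 30.8% lower, and the median was −0.06. Which of the listed genes passed the filter on low counts through muscle alone was not examined, so their calls are given only as a description.

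For the tissue difference of cattle against sheep, 6 of 12 thick filament genes, 3 of 10 thin filament genes and 2 of 18 Z-disc genes were called, against 20.0% of all genes. The share of the Z-disc list lay below that of all genes. TRIM54 (4.83 ± 0.92), MYLK2 (1.76 ± 0.50), KLHL40 (3.69 ± 0.65), TPM2 (2.40 ± 0.76), ANKRD2 (4.38 ± 0.68) and ACTN2 (alpha-actinin 2, 1.55 ± 0.47) differed more between tissues in cattle. LASP1 had a value of −1.75 ± 0.53 and SMYD1, a methyltransferase of muscle, −3.71 ± 1.16.

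Genes with the most similar levels over the 9 muscle libraries were found by Pearson correlation of log2 levels among 7174 genes, as a description over libraries that fall into 3 species. They were VPS52 (r = 0.985) for TTN, CACNA2D1 (0.975), a calcium channel subunit, for NEB, MEAF6 (0.984) and the formin FHOD3 (0.979) for MYBPC1, and SULT1A1 (0.961) for MYBPC2. For the myomesins they were ARFGEF2 (0.994) for MYOM1 and USP10 (0.974) for MYOM2. The Z-disc genes had DICER1 (0.993) for MYPN, UTP6 (0.984) for MYOT and IRAK1 (0.989) for LDB3. The members themselves were not among the candidates. The value for TTN uses joined levels of pieces that are unlike between species, so it is not read as likeness of expression.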

How the data were processed

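RNA of 18 libraries was measured by sequencing, 3 for each of 6 groups set from the sample titles. The values are raw read counts per gene as the authors deposited them. The submitters' processing notes name Trimmomatic 0.39, STAR 2.7.6, featureCounts and, as the only build, ARS-UCD1.2, and the labels' protocols give TRIzol extraction and oligo(dT) selection. Counting settings, strand and the builds used for the other 2 species are not stated there.

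Cattle genes were named by position (overlap of at least 0.5 of the union with RefSeq genes of a later build, 16972 named) and matched to sheep and goat by at least 2 shared pairs of exon lengths, then by neighbours, with gene order kept in 98.1%, 97.1% and 96.8% of first-step matches. The pieces of TTN were picked by position (inside the RefSeq span or between neighbours) and their counts added. No genome or sequence table was used, so no sequences are printed.

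Counts were tested with edgeR 4.0.16 (quasi-likelihood, robust, filterByExpr, TMM) in R 4.3.3, within species and in fits of 18 libraries with exonic length as offset. The method was run on counts simulated without group differences except in a small set of changed genes. Far more genes differ in the present data, so that run does not show how the method behaves here. Alternatives were DESeq2 1.42.0, limma-voom (limma 3.58.1), other scaling, no filter, a block for replicate letters and omission of each library. The members, lists and tests were chosen with earlier results of these data known. Named genes beyond the members were, per list, up to 4 with the lowest adjusted p and up to 2 called against the list median, of which those in the fit of 3 species and for cattle against sheep are printed, without TRIM55 (0 counts in cattle brain); and the 2 most alike genes per member, of which 10 are printed. Library totals of 20730803 to 58514630 counts make spread between libraries the main error for all but the lowest genes.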

Additional observations from a re-analysis of the deposited data

Results flagged for a closer look

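The difference between muscle and brain was itself compared between species by the interaction test of edgeR, at a BH-adjusted p below 0.05. For cattle against sheep 4 of the 9 genes were called, against 20.0% of all genes. For cattle against goat it was 1 of 9, against 13.1%, and for sheep against goat 1 of 9, against 7.45%. As cattle minus sheep, the muscle-minus-brain difference changed by −3.95 for TTN, −2.83 for MYOM1, 2.74 for MYBPC1 and 3.74 for MYBPC2. As cattle minus goat it changed by 2.56 for MYBPC2, and as sheep minus goat by 1.99 for LDB3. The MYBPC1 call was lost under 3 of 21 alternatives and the cattle and goat call of MYBPC2 under 8 of 21. The TTN value rests on 7 counts in sheep brain, and sheep TTN passed the filter through muscle alone. Between cattle and sheep, MYOM1 differed by 0.61 ± 0.43 in muscle, not called, and by 3.44 ± 0.48 in brain. MYBPC2 differed by −0.19 ± 0.49 in muscle, not called, and by −3.93 ± 0.56 in brain. The sheep brain values of MYBPC2 were 4.54, 7.18 and 18.04, the highest in the library that resembled its group least. Between sheep and goat, LDB3 differed by 1.15 ± 0.29 in muscle and by −0.84 ± 0.29 in brain, the latter not called.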

How the results depend on the processing

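The 9 of 9 members called higher in muscle, in each species and over the 3, stayed 9 under every alternative run (MYPN, MYOT and sheep TTN passed the filter through muscle alone), and all 567 values of single members lay between 5.51 and 20.07 and stayed called. With library totals alone the median over all genes moved from −0.06 to −1.01 in the fit of 3 species. Without any 1 library the count for the muscle of cattle against sheep was 0 throughout; for the muscle of cattle against goat it was 1 to 3, for sheep against goat 1 to 2, for the brain of cattle against goat 1 to 3, for the brain of sheep against goat 1 to 3, and for the tissue difference of cattle against goat 0 to 2. The other counts between species were 3 to 5 (tissue difference of cattle against sheep), 4 to 5 (brain of cattle against sheep) and 1 (tissue difference of sheep against goat). In muscle, cattle against sheep gave 0 with library totals alone, the replicate block or no exonic length offset and 2 with limma-voom; cattle against goat gave 1 with library totals alone or no length offset and 5 with limma-voom; sheep against goat gave 1 with RLE scaling or first-pass matches and 0 with library totals alone. In brain, cattle against goat gave 2 with library totals alone, the replicate block, no length offset or first-pass matches and 3 with DESeq2. Limma-voom gave 0 for the tissue difference of cattle against goat. The cause of these moves was not tested, except that leaving out a library leaves fewer samples. The replicate block is a hint only, since same-letter correlations between brain and muscle ran from −0.164 to 0.203 and the letters were not taken to pair samples; every library correlated best with its own letter in sheep, but not in cattle or goat. Uncalled values that changed sign, with the cause not tested, were NEB in the muscle of sheep against goat (−0.088 with library totals alone), MYPN in the tissue difference of cattle against goat (0.23 with limma-voom), MYPN in the brain of sheep against goat (0.20 with the replicate block), MYOM2 and MYPN in the muscle of cattle against sheep (−0.21 and −0.065 with no length offset), MYOM2 in the brain of cattle against goat (−0.14) and MYOT in the muscle of sheep against goat (0.30), the last 2 with no length offset. Leaving out 1 library gave a changed sign within these ranges: MYBPC1 in the brain of cattle against goat, −0.80 to 0.094; MYBPC2, MYOM2 and MYPN in the muscle of cattle against sheep, −0.62 to 0.17, −0.13 to 0.33 and −0.10 to 0.36; MYPN and MYOT in the brain of sheep against goat, −2.54 to 0.52 and −5.67 to 2.87. For the tissue difference of sheep against goat they were −0.81 to 0.038 for MYOM2 and −3.07 to 5.38 for MYOT, and for the muscle of sheep against goat −0.44 to 0.0097 for MYOT and −0.097 to 0.47 for NEB. The exact p of joined TTN to NEB, void as a comparison of species because its pieces differ, was 0.00357 to 0.00714 without any 1 library. The p with its 7-exon piece (0.654) and with its last piece (0.157), both chosen after seeing the data, lost the call. These do not compare the species either, since the last pieces are unlike and the 7-exon piece held fewer reads per kb than the end pieces. For MYBPC1 to MYBPC2 the exact p was 0.05 to 0.232 and for MYOM1 to MYOM2 0.171 to 0.846 without 1 library. Depth limits MYPN and MYOT in brain, with at most 9 and 88 counts per library.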
